A study of Homo sapiens with 4 samples.

Results

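The expression of 35 genes of DNA damage signalling, recombination and mismatch repair was examined in HCT116 cells, a human colorectal carcinoma line, after treatment with HJ-4, a derivative of the pepper alkaloid piperine. The genes were taken as a named list of 35 of the 20263 genes in the count table, by matching Ensembl gene IDs to GENCODE symbols. The list follows the genes' known functions, and it was drawn up with earlier results of these data known. They were ordered by the step at which their products act, with 7 genes of checkpoint kinases and mediators, 15 of homologous recombination, 10 Fanconi genes, 2 mismatch repair genes and the uracil glycosylase gene UNG. Cells labelled as wild type were given HJ-4 at 32 µM or the vehicle DMSO at 0.1%, each for 24 h, with 2 libraries per condition, and the labels do not give the share of vehicle in the HJ-4 dishes. A figure legend of the study gives a lower dose of HJ-4 for the transcriptome than the labels and the methods, and the labels were followed. The methods speak of biological triplicates, but only these 4 libraries were analysed here and the labels name no separate dishes for the libraries, so the spread behind the p-values may be technical only. HCT116 is a single line, with functional p53 and without a working mismatch repair system.

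Cells meet broken or stalled DNA with a kinase cascade, in which ATM answers double-strand breaks and ATR answers single-stranded DNA, and CHEK2 and CHEK1 carry their signals to the cell cycle machinery. Homologous recombination trims a broken end, pairs it with the intact sister and copies the sequence, a route open mainly in S and G2 phase. The Fanconi proteins detect and unhook crosslinks between the strands, while mismatch repair corrects errors of the replicative polymerases. Many of these genes are transcribed most in cells that replicate DNA, under E2F transcription factors, so that their mRNA is also known to follow the share of cycling cells.

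The libraries held 29769568 to 34359889 counts, and all 35 genes passed the filter on low counts, with 136 to 3470 counts per gene and library. Levels are given as normalised read counts, that is, CPM, each count as a share of its library's TMM-scaled total, and changes as the log2 ratio of HJ-4 to DMSO, whose median over all 14044 genes tested was 0.00. The 6 epithelial markers EPCAM, KRT8, KRT18, KRT19, CDH1 and CDX2 were all detected, with summed levels of 5057 to 5606 TPM (the same kind of share, per transcript length), whereas the markers PTPRC, CD3E, PECAM1, VWF, CDH5, COL1A2, DCN and PDGFRB of leukocytes, endothelium and fibroblasts stayed at or under 0.313 TPM. COL1A1 and CD68, listed for fibroblasts and leukocytes, were at 19.7 to 20.9 and 39.8 to 58.1 TPM. With 2 libraries against 2, an exact two-sided permutation test of a single value cannot give a p below 0.333, so single genes were tested with edgeR's quasi-likelihood model, which borrows information on the spread across all genes.

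No gene of the list passed an adjusted p of 0.05 in edgeR, a threshold that 0.0427% of all genes passed as higher and 0.00712% as lower. At an unadjusted p under 0.05, 6 of the 35 genes (17.1%) were lower with HJ-4, against 7.93% of all genes, and these were RAD54L, FANCG, FANCA, MDC1, XRCC2 and BRIP1. ATM and CHEK1 were higher at that threshold, which is 2 of 35 (5.71%) against 7.93% of all genes. DESeq2 called 4 of the 35 genes lower at an adjusted p under 0.05 (11.4%, against 1.76% of all genes), namely RAD54L, FANCG, FANCA and MDC1, and 0 higher, against 2.33% of all genes. Both HJ-4 libraries lay below both DMSO libraries for 10 genes (28.6%) and above them for 7 (20%), shares close to the 25.6% and 25.1% found over all genes. The median log2 fold change of the 35 genes was -0.16, and 20 of the values were negative. Leaving out DMSO replicate 2 moved that median to 0.01, and leaving out HJ-4 replicate 2 to -0.01. No value of the 35 reached the fold threshold of 1.2 on the log2 scale that the study used.

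**Figure D1:**
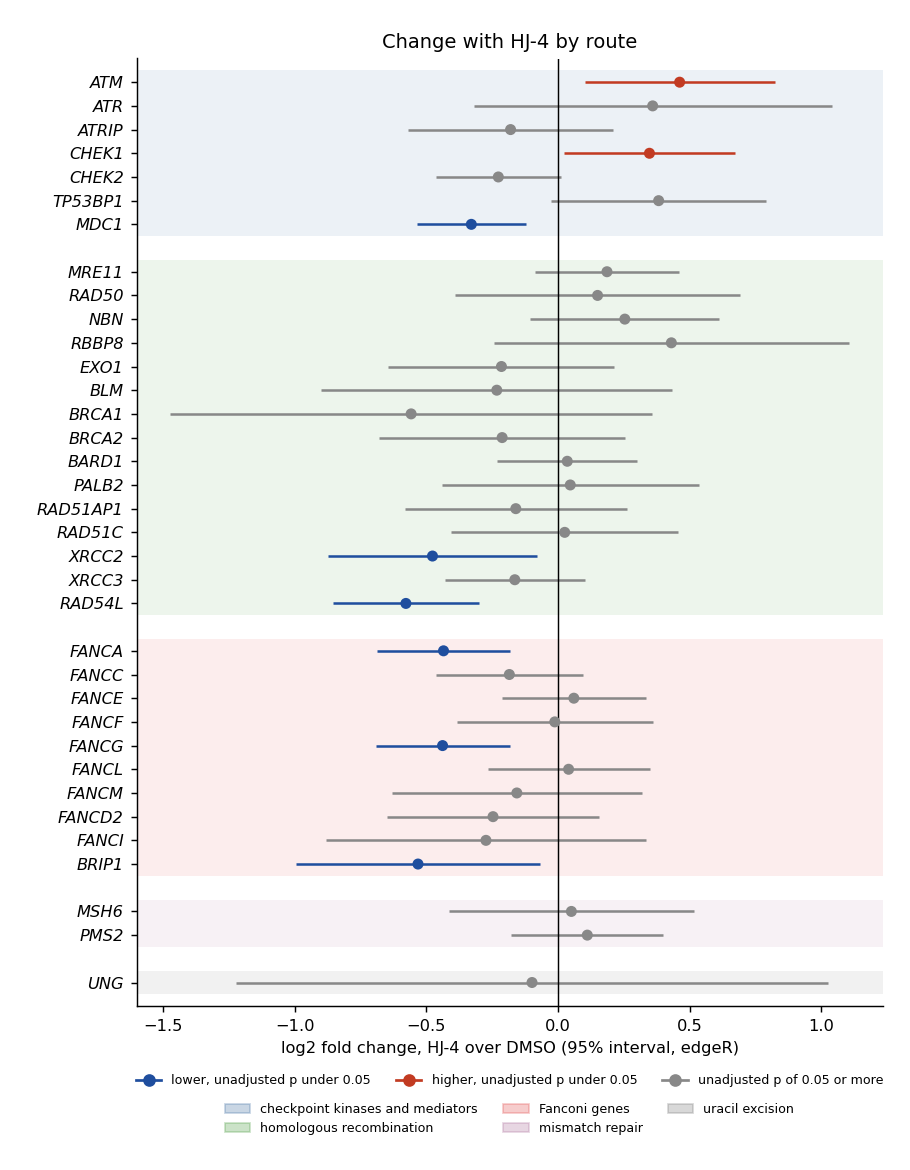
Log2 fold change (HJ-4 over DMSO, x axis) of the 35 genes, shaded by route. Points are edgeR estimates, bars their 95% intervals and colours the unadjusted p, with ATM and CHEK1 to the right of 0 and RAD54L, XRCC2, FANCA, FANCG, BRIP1 and MDC1 to the left.

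The promoters of RAD54L, FANCG, FANCA and MDC1, the 4 lower genes of smallest unadjusted p, are shown because they can be read for the sites of cell cycle transcription factors. Each run covers 250 bases before to 50 bases after the RefSeq start on GRCh38.p14, written 5′ to 3′ along the gene. Capitals mark matches on either strand to the E2F core, written TTNNCGC with C or G at each N, and to the cell cycle homology region (CHR), written TTNGAA with T or C at the N.
RAD54L (chr1:46247438-46247737, plus strand): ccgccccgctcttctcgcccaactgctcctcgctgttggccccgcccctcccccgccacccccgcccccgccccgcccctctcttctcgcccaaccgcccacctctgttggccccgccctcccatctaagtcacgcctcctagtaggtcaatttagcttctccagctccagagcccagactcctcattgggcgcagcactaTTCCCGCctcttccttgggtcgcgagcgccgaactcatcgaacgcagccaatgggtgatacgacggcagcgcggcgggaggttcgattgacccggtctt
FANCG (chr9:35079893-35080192, minus strand): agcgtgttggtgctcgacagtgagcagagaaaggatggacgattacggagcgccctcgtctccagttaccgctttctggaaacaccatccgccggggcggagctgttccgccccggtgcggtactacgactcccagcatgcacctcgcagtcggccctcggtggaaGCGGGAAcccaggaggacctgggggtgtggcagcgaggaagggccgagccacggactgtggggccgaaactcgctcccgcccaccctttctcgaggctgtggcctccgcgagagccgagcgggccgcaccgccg
FANCA (chr16:89816598-89816897, minus strand): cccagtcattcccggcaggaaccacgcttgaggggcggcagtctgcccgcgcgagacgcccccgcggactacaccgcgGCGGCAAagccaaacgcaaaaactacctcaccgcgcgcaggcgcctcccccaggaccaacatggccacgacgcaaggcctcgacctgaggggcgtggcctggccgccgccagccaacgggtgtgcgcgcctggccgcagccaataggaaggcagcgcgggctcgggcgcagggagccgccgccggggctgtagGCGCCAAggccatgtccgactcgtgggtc
MDC1 (chr6:30717232-30717531, minus strand): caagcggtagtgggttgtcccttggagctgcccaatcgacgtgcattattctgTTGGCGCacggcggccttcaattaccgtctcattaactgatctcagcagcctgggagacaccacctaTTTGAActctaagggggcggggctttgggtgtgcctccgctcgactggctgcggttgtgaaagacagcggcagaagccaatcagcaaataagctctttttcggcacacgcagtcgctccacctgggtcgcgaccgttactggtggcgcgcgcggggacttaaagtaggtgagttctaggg
Over the 33 members with a promoter in the RefSeq table, 19 (57.6%) held an E2F core, against 20.4% of the 11122 tested genes with a promoter and 13.0% of all 35116 promoters of the same length, and 4 (12.1%) held a CHR, against 11.1% and 16.4%. Some matches overlap, as in the UNG promoter, where cores on the 2 strands share bases. All 6 genes lower at an unadjusted p under 0.05 held an E2F core, and neither ATM nor CHEK1 did. Among the 19 members with a core, 6 (31.6%) were lower at that threshold and 5 had a positive log2 fold change. Among the 14 without one, 0 were lower and 9 had a positive value. Over all tested genes with a promoter, 9.20% of those with a core and 7.47% of those without were lower at that threshold. The 19 genes with a core had a median log2 fold change of -0.19 and the 14 without one a median of 0.10. By route, a core was held by 1 of 7 checkpoint promoters, 7 of 14 recombination promoters and 8 of 9 Fanconi promoters. The split by core is thus in large part a split by route, and their parts in these values were not tested. Over all genes tested with a promoter, the medians were 0.00 for the 2271 with a core and 0.01 for the 8851 without. A match describes the letters of this window only, and binding was not measured.

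Among the checkpoint genes, the values of ATM and CHEK1 lay higher with HJ-4 and those of MDC1 and CHEK2 lower. ATM (ENSG00000149311, chr11:108223044-108369102), the kinase that double-strand breaks activate, was at 53.6 and 66.9 CPM with DMSO and at 88.3 and 77.5 CPM with HJ-4. The conditions did not overlap, and HJ-4 replicate 1 was the highest library. The log2 fold change was 0.46 (standard error 0.14, unadjusted p = 0.0218, adjusted p = 0.248 by edgeR). Leaving out HJ-4 replicate 1 gave 0.35, with an unadjusted p of 0.137. CHEK1 (ENSG00000149554, chr11:125625163-125676255), the effector kinase of ATR, stood at 18.7 and 19.4 CPM with DMSO and at 22 and 26.4 CPM with HJ-4. Here too the groups did not overlap, although the HJ-4 libraries differed more from each other than the DMSO libraries did. Its log2 fold change was 0.35 (standard error 0.13, unadjusted p = 0.0412, adjusted p = 0.30 by edgeR), and it was 0.20 without HJ-4 replicate 2 (unadjusted p = 0.254). Over 18.2% of its exon bases CHEK1 faces a non-coding gene on the opposite strand, as MDC1 does over 10.1%, and reads there cannot be assigned to a strand.

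MDC1 (ENSG00000137337, chr6:30699807-30717447), the scaffold that binds phosphorylated H2AX beside a break, was at 94.7 and 89.1 CPM with DMSO and at 73.4 and 72.9 CPM with HJ-4. The HJ-4 libraries were nearly equal and lay below both DMSO libraries. The log2 fold change was -0.33 (standard error 0.08, unadjusted p = 0.00942, adjusted p = 0.206 from edgeR and 0.0472 from DESeq2). TP53BP1, the other mediator in the list, which favours end joining over resection, pointed the other way. It was at 64.1 and 86.1 CPM with DMSO and at 102 and 93.8 CPM with HJ-4, and the conditions did not overlap (log2 fold change 0.38, standard error 0.16, unadjusted p = 0.0609 from edgeR). The canonical transcript of TP53BP1 shares 29.6% of its exon bases with TUBGCP4 on the opposite strand, whose own log2 fold change was -0.09.

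CHEK2, the effector kinase of ATM, was at 43.2 and 45.2 CPM with DMSO and at 38.6 and 36.9 CPM with HJ-4, with no overlap (log2 fold change -0.23, unadjusted p = 0.0569 from edgeR). GENCODE lists pseudogene copies of CHEK2, so its reads may have been shared or dropped in counting. The same limit holds for MRE11, RBBP8, BRCA1, RAD51AP1, FANCD2, PMS2 and UNG, which also have copies listed there. ATR, the kinase of replication stress, showed a wide gap within DMSO, at 12.9 and 21.7 CPM, and was at 23.9 and 20.5 CPM with HJ-4. Its log2 fold change was 0.36, with a 95% interval from -0.32 to 1.04, and 0.03 without DMSO replicate 1. ATRIP, the partner that brings ATR to single-stranded DNA, had a log2 fold change of -0.18, with an interval from -0.57 to 0.21. ATRIP shares 24.0% of its exon bases with TREX1 on the same strand, whose own log2 fold change was 0.48. The summed reads of ATRIP and TREX1 were at 9.7 and 13.4 CPM with DMSO and at 13.4 and 11.2 CPM with HJ-4. The groups overlapped for that sum, and the log2 ratio of its means was 0.08, so the sign for ATRIP depends on how reads were assigned. The median of the 7 checkpoint genes was 0.35, and it was 0.03 without DMSO replicate 1.

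**Figure D2:**
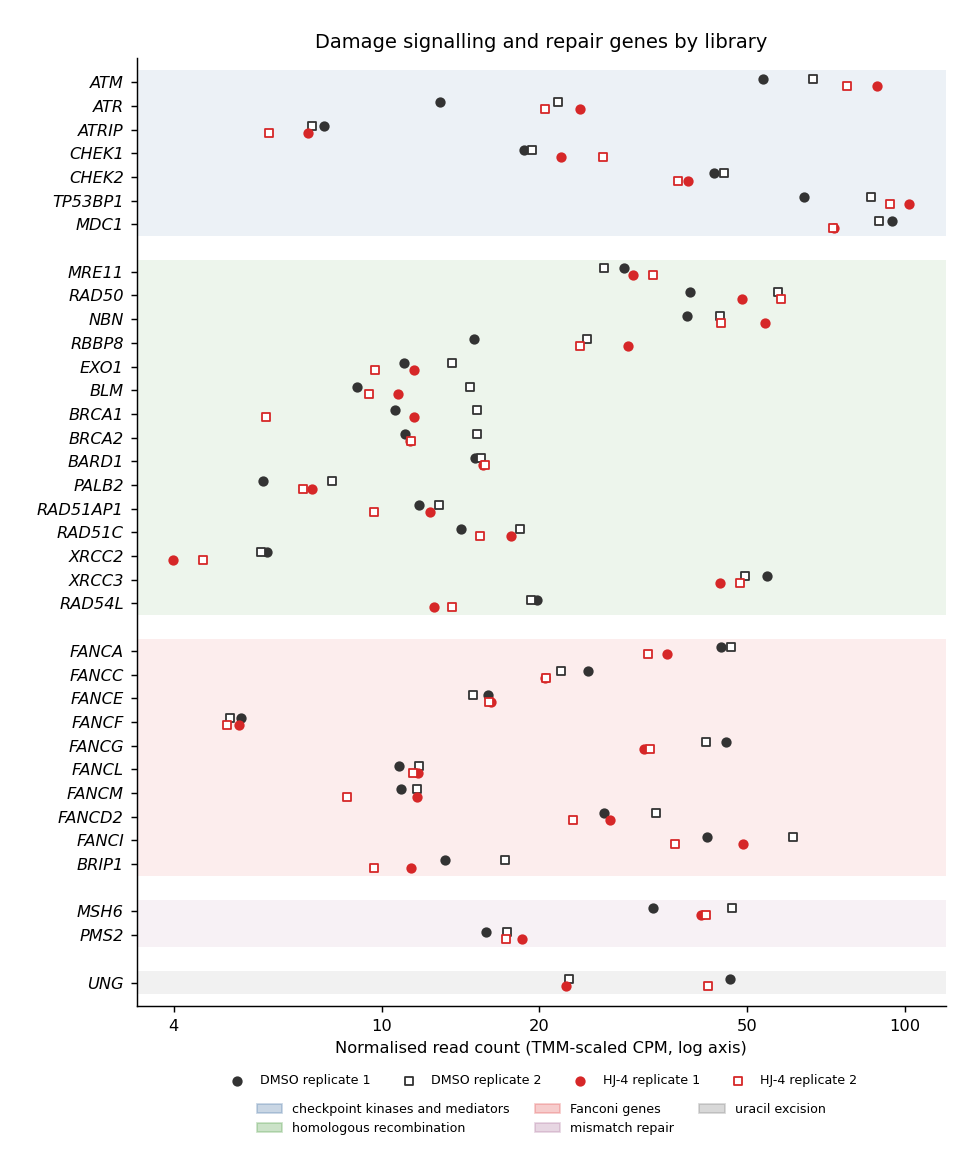
Normalised read count (CPM, log axis) of each gene in each library, black for DMSO and red for HJ-4, with filled circles for replicate 1 and open squares for replicate 2. RAD54L, FANCA and FANCG show close replicates and separate groups, whereas UNG has DMSO replicate 1 with HJ-4 replicate 2 and DMSO replicate 2 with HJ-4 replicate 1.

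Of the genes that sense and trim broken ends, 4 of 6 had a positive log2 fold change and 0 passed an unadjusted p of 0.05. The nuclease gene MRE11 was at 29.0 and 26.6 CPM with DMSO and at 30.2 and 33.1 CPM with HJ-4, and NBN, the third protein of the MRE11-RAD50-NBN complex, at 38.4 and 44.3 against 54 and 44.5 CPM. In both genes the HJ-4 libraries lay above the DMSO libraries, with log2 fold changes of 0.19 and 0.25 (unadjusted p = 0.141 and 0.129 from edgeR). RBBP8, the gene of the resection factor CtIP, had a log2 fold change of 0.43, with a 95% interval from -0.24 to 1.10. Its DMSO libraries were far apart, at 15 and 24.7 CPM, and the HJ-4 libraries, at 29.6 and 24.0 CPM, overlapped them.

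RAD50, the ATPase of the complex, was at 38.9 and 57.4 CPM with DMSO and at 48.9 and 57.9 CPM with HJ-4 (log2 fold change 0.15). Its canonical transcript shares 91.0% of its exon bases with ENSG00000283782, a gene model on the same strand with its own line in the table. That model was at 8.31 and 1.13 CPM with DMSO and at 19.9 and 5.24 CPM with HJ-4. The summed reads of both models were at 47.2 and 58.5 CPM with DMSO and at 68.8 and 63.1 CPM with HJ-4, so that the groups overlapped for RAD50 alone and did not overlap for the sum. The sources used here do not say how the counting divided reads between the models. The long-range resection genes EXO1, which also acts in mismatch repair, and BLM had log2 fold changes of -0.22 and -0.23, and that of BLM was 0.17 without DMSO replicate 2.

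Of the BRCA complexes and strand exchange genes, 6 of 9 had a negative value, and RAD54L and XRCC2 passed an unadjusted p of 0.05. RAD54L (ENSG00000085999, chr1:46246461-46278480), a motor protein of strand exchange, was at 19.8 and 19.3 CPM with DMSO and at 12.6 and 13.6 CPM with HJ-4. The libraries of each condition were close and the groups well apart. The log2 fold change was -0.58 (standard error 0.11, unadjusted p = 0.00309, adjusted p = 0.159 from edgeR and 0.0180 from DESeq2), and it lay between -0.65 and -0.54 when each library was left out. LRRC41, which shares 18.4% of the exon bases of RAD54L on the opposite strand, had a log2 fold change of 0.16. As the promoter above shows, RAD54L has a single E2F core, 49 to 43 bases before its start.

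XRCC2 (ENSG00000196584, chr7:152644776-152676193), which acts in strand exchange, was the gene with the fewest counts in the list. It was at 6.02 and 5.88 CPM with DMSO and at 3.99 and 4.56 CPM with HJ-4, without overlap (log2 fold change -0.48, standard error 0.15, unadjusted p = 0.0272, adjusted p = 0.265 from edgeR). DESeq2 gave XRCC2 an unadjusted p of 0.0794. XRCC3 and RAD51C, which act at the same step, did not pass, with log2 fold changes of -0.16 and 0.03. Their 95% intervals ran from -0.43 to 0.10 and from -0.41 to 0.46.

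BRCA1, the ubiquitin ligase that promotes resection, had the most negative value after RAD54L, and its HJ-4 libraries disagreed. It was at 10.6 and 15.2 CPM with DMSO and at 11.5 and 6.00 CPM with HJ-4. The log2 fold change was -0.56, with a 95% interval from -1.47 to 0.36, and it ranged from -1.12 without HJ-4 replicate 1 to -0.18 without HJ-4 replicate 2. BARD1, the partner of BRCA1, held between 15.1 and 15.7 CPM in all 4 libraries (log2 fold change 0.03, 95% interval from -0.23 to 0.30). BRCA2, which prepares the trimmed end for strand exchange, was at 11.1 and 15.2 CPM with DMSO and at 11.3 and 11.4 CPM with HJ-4, and PALB2, which joins BRCA1 to BRCA2, at 5.92 and 8.04 against 7.34 and 7.07 CPM. RAD51AP1, a stimulator of strand exchange, had a log2 fold change of -0.16, and a value of -0.007 without HJ-4 replicate 2. None of BRCA1, BARD1, BRCA2, PALB2 and RAD51AP1 had an unadjusted p under 0.05.

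Of the Fanconi genes, 8 of 10 had a negative value, and the median was -0.22. FANCA, FANCG and BRIP1 were lower at an unadjusted p under 0.05 and none was higher. FANCG (ENSG00000221829, chr9:35073835-35080004), a core complex subunit that binds FANCA, was at 45.5 and 41.6 CPM with DMSO and at 31.7 and 32.6 CPM with HJ-4. The groups were clearly apart. Its log2 fold change was -0.44 (standard error 0.10, unadjusted p = 0.00685, adjusted p = 0.189 from edgeR and 0.0271 from DESeq2). Over 7.16% of its exon bases FANCG overlaps a protein-coding gene model on the same strand that has no counts of its own here.

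FANCA (ENSG00000187741, chr16:89726683-89816977), the binding partner of FANCG in the core complex, was at 44.5 and 46.6 CPM with DMSO and at 35.1 and 32.3 CPM with HJ-4. Its log2 fold change of -0.44 (standard error 0.10, unadjusted p = 0.00696, adjusted p = 0.190 from edgeR and 0.0301 from DESeq2) was close to that of FANCG. FANCA shares 24.4% of its exon bases with ZNF276 on the opposite strand, which was also lower (log2 fold change -0.30, unadjusted p = 0.0209 from edgeR). The kit that the study names does not mark strand, so the reads of the shared bases cannot be told apart.

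The other core genes spread around 0. FANCC had a log2 fold change of -0.19, with both HJ-4 libraries, at 20.5 and 20.7 CPM, below the DMSO libraries at 24.8 and 22 CPM. FANCE, FANCF and FANCL, the last of them the ubiquitin ligase of the complex, had values of 0.06, -0.01 and 0.04, with 95% intervals within 0.384 of 0 on both sides. FANCL shares 27.3% of its exon bases with VRK2 on the opposite strand, whose own log2 fold change was 0.26. FANCM, the anchor of the complex on chromatin, was at 10.9 and 11.7 CPM with DMSO and at 11.7 and 8.57 CPM with HJ-4.

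Among the targets and effectors of the core complex, BRIP1 (ENSG00000136492, chr17:61679139-61863559), the helicase also called FANCJ, was at 13.2 and 17.2 CPM with DMSO and at 11.4 and 9.65 CPM with HJ-4. The HJ-4 libraries lay below both DMSO libraries, which differed from each other by a ratio of 1.31. The log2 fold change was -0.53 (standard error 0.18, unadjusted p = 0.0316, adjusted p = 0.276 from edgeR), and -0.33 without DMSO replicate 2. FANCD2 and FANCI form the clamp that the core complex ubiquitylates. FANCD2 was at 26.6 and 33.4 CPM with DMSO and at 27.3 and 23.2 CPM with HJ-4, and FANCI at 41.9 and 61.2 against 49.0 and 36.3 CPM. In both genes DMSO replicate 2 was the highest library and HJ-4 replicate 2 the lowest, and the conditions overlapped. The log2 fold changes were -0.25 and -0.27, and that of FANCI was 0.03 without DMSO replicate 2.

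The mismatch repair genes of the list showed no difference beyond their spread. MSH6, which recognises single mispairs, was at 33.0 and 46.7 CPM with DMSO and at 40.8 and 41.7 CPM with HJ-4 (log2 fold change 0.05, 95% interval from -0.41 to 0.52). PMS2, a nuclease of mismatch repair, was at 15.8 and 17.4 CPM with DMSO and at 18.5 and 17.3 CPM with HJ-4 (log2 fold change 0.11, 95% interval from -0.18 to 0.40). PMS2 has many near-identical pseudogene copies, so its counts are uncertain.

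UNG, whose product removes uracil from DNA, had the largest gap of the 35 genes between the DMSO libraries, and after BRCA1 the largest between the HJ-4 libraries. It was at 46.3 and 22.8 CPM with DMSO and at 22.5 and 42.1 CPM with HJ-4. DMSO replicate 1 and HJ-4 replicate 2 thus lay about alike, and so did DMSO replicate 2 and HJ-4 replicate 1. The log2 fold change was -0.10, with a 95% interval from -1.22 to 1.02, so that a difference of either sign was not detectable.

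Levels were compared between genes only per length, as TPM on the canonical transcript of GENCODE. With DMSO, BRCA2 was lowest, at 2.19 ± 0.51 TPM (SD, n = 2), followed by XRCC2 at 2.48 ± 0.02 TPM, a difference within the spread of BRCA2. CHEK2 was highest, at 47.6 ± 2.02 TPM, followed by XRCC3 at 40.3 ± 2.40 TPM, and the values of these genes did not overlap. FANCG and UNG followed at 33.9 ± 1.80 and 33.5 ± 15.8 TPM, which the spread of UNG does not separate. The partners FANCI and FANCD2 stood at 21.7 ± 5.98 and 11.7 ± 2.02 TPM, and BARD1 and BRCA1 at 5.55 ± 0.16 and 3.62 ± 0.95 TPM.

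The conditions were set against the differences between libraries that should be alike. In 23 of the 35 genes, the gap between the libraries of at least 1 condition exceeded the difference between conditions on the log2 scale. The median gap was 0.17 within DMSO and 0.19 within HJ-4, against 0.16 and 0.11 over all genes. DMSO replicate 2 was above DMSO replicate 1 in 24 genes, and in 19 of these HJ-4 replicate 2 was below HJ-4 replicate 1. The shares over all genes that match these 23 and 19 genes were not computed. As a description over the 35 genes, which share the 4 libraries, the gaps had a Spearman correlation of -0.51 (Pearson -0.63), and of -0.46 (Pearson -0.42) over the 34 genes without UNG. Over all genes tested with a canonical transcript it was -0.14 (Pearson -0.04).

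**Figure D3:**
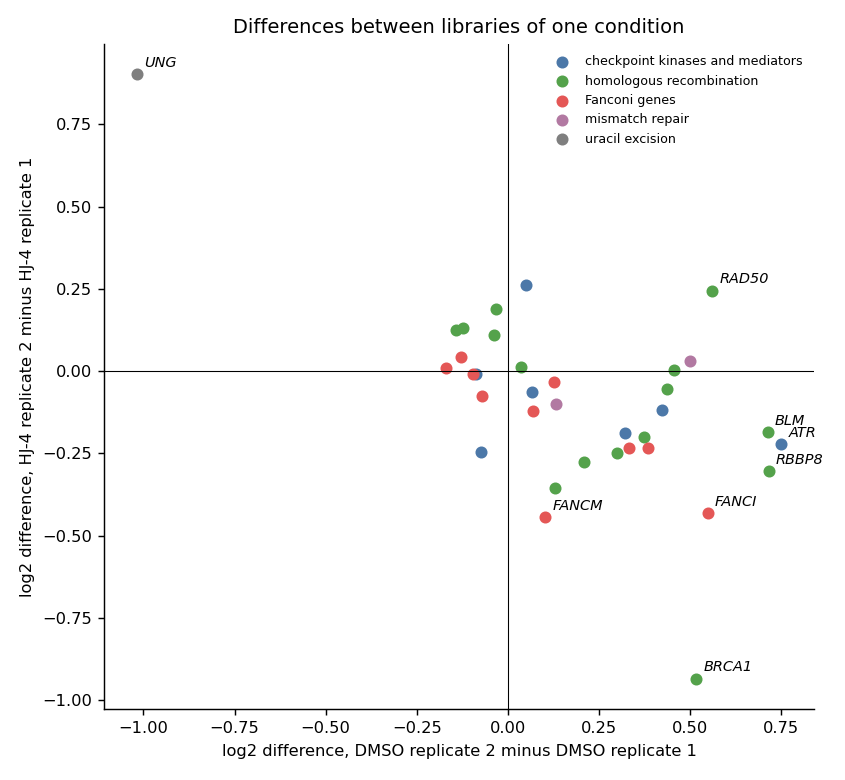
Log2 difference between the DMSO libraries (replicate 2 minus 1, x axis) and between the HJ-4 libraries (y axis) for each gene, coloured by route. UNG lies at the upper left and BRCA1, FANCI, ATR, BLM and RBBP8 at the lower right, while 19 genes in all have a positive DMSO and a negative HJ-4 gap.

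The gaps between libraries were set against the base composition and length of the transcripts. Of the 26 genes with a GC content under 50%, 23 were higher in DMSO replicate 2, with a median difference of 0.33 on the log2 scale, and of the 9 genes with a higher GC content 1 was. Over all genes tested, the medians were 0.08 and -0.10, and 4414 of 7144 and 2015 of 6851 genes were higher in DMSO replicate 2. The Spearman correlation of GC content with the DMSO gap was -0.46 over the 35 genes and -0.35 over the 13995 genes with a canonical transcript. For the HJ-4 gap (replicate 2 minus 1) the sign was opposite, 0.28 and 0.32. Transcript length had a Spearman correlation of 0.41 with the DMSO gap over the 35 genes and of 0.17 over all. Between GC content and the log2 fold change of HJ-4 the Spearman correlation was -0.26 and -0.09. Of the 6 lower genes, MDC1, RAD54L, FANCA and FANCG had a GC content of 53.0% to 57.7%. The other lower genes, XRCC2 and BRIP1, had 40.0% and 38.0%, close to the higher genes ATM and CHEK1 with 38.6% and 41.6%. With trends on length and GC content removed from each library, an unadjusted p under 0.05 was found for 7 lower genes, CHEK2 among them, and for 2 higher ones, ATM (log2 fold change 0.41) and TP53BP1, while CHEK1 had a p of 0.0964. That fit gave 2690 of all genes in either direction at this threshold, against 2228 without the correction.

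**Figure D4:**
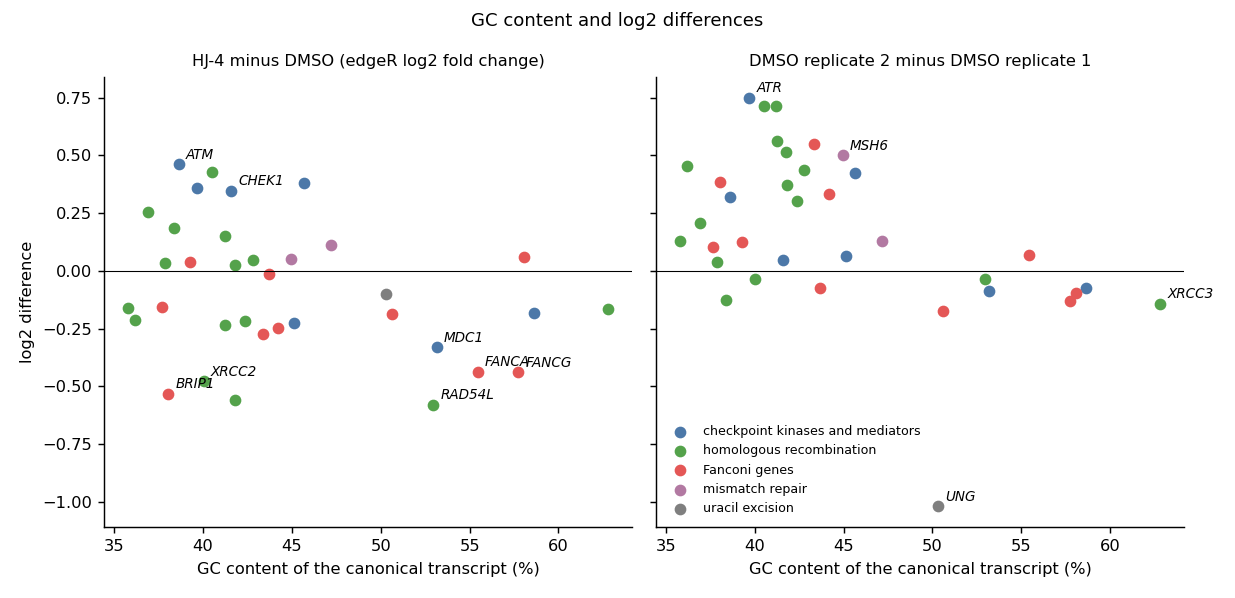
Log2 difference between HJ-4 and DMSO (left) and between the DMSO libraries (right) against the GC content of the canonical transcript (%), for the 35 genes coloured by route. Genes under 50% GC lie mostly above 0 on the right, and on both sides of 0 on the left, where XRCC2 and BRIP1 are low and ATM and CHEK1 high.

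**Figure D5:**
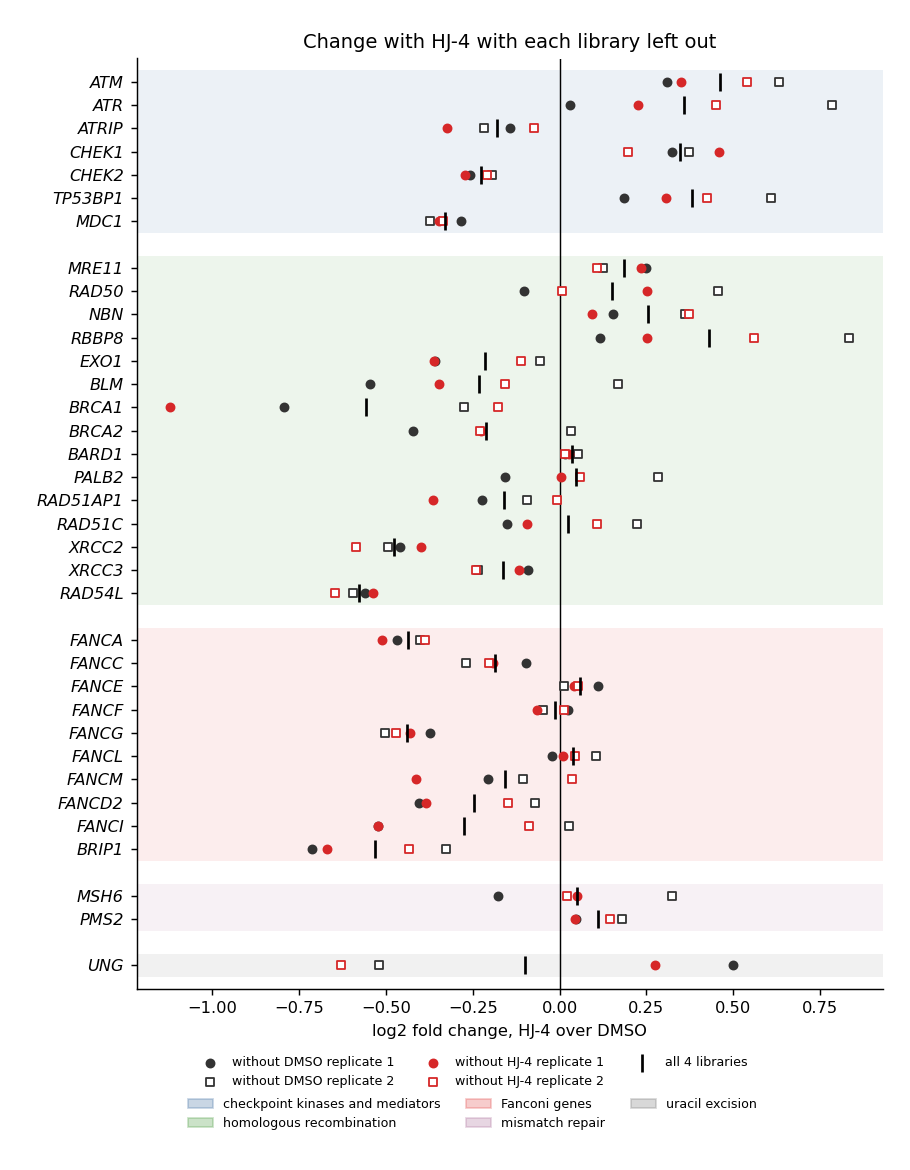
Log2 fold change (x axis) of each gene with 1 library left out, black for a DMSO library and red for an HJ-4 library, with a bar for the value on all 4 libraries. RAD54L, FANCA, FANCG and MDC1 stay within narrow ranges left of 0, whereas BRCA1 runs from -1.12 to -0.18 and UNG from -0.63 to 0.50.

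With each library left out, RAD54L, FANCA, FANCG, MDC1, XRCC2 and BRIP1 kept a negative value and ATM and CHEK1 a positive one, as the plot of left-out libraries shows. In RAD54L and FANCG the unadjusted p stayed under 0.05 in each of these fits, whereas without HJ-4 replicate 2 it was 0.0506 for FANCA and 0.0548 for MDC1. For XRCC2 it ran from 0.0531 to 0.134. BRIP1 passed only without DMSO replicate 1 and CHEK1 only without HJ-4 replicate 1. The log2 fold changes ranged from -0.51 to -0.39 for FANCA, -0.50 to -0.37 for FANCG and -0.37 to -0.28 for MDC1. For ATM the range was 0.31 to 0.63 and for BRIP1 -0.71 to -0.33. The Fanconi median ranged from -0.40 to -0.09 and the recombination median from -0.16 to 0.05.

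Further genes of the same pathways, 83 in all, included 9 lower genes and 4 higher genes (unadjusted p under 0.05, passed by 7.93% of all genes in each direction), with a median log2 fold change of -0.03. None passed an adjusted p of 0.05 in edgeR, and DESeq2 called POLD1, the catalytic subunit of DNA polymerase delta, lower (log2 fold change -0.53, adjusted p = 0.000447 from DESeq2). By pathway, 3 of 14 other checkpoint genes, 2 of 22 recombination genes and 2 of 14 Fanconi genes were lower. Recombination, base excision (15 genes) and end joining (9 genes) each held 1 higher gene. The other Fanconi genes had a median of -0.09, and both HJ-4 libraries lay below both DMSO libraries in 7 of 14. So they did in 6 of 22 other recombination genes, 5 of 14 other checkpoint genes and 3 of 9 other mismatch repair genes. In base excision it was 2 of 15 genes and in end joining 0 of 9. Over the 83 genes, the HJ-4 libraries lay below in 23 and above in 13, against 25.6% and 25.1% of all genes.

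Markers of DNA synthesis were lower with HJ-4 in the same libraries. Of 13 genes of the G1/S transition and DNA synthesis, 12 were lower at an unadjusted p under 0.05 (0 at an adjusted p of 0.05 in edgeR and 7 in DESeq2), and the summed level was 1305 and 1279 CPM with DMSO and 941 and 930 CPM with HJ-4. Of 12 genes of mitosis, 2 were lower and 1 higher, with sums of 1343 and 1643 CPM with DMSO and 1308 and 1288 CPM with HJ-4. In RNA from whole cultures, fewer cells in S phase and less mRNA per cell cannot be told apart. In a separate assay on this line, the paper reports that EdU-positive cells, those making DNA, declined as the concentration of HJ-4 rose. The part of these marker differences in the values of the repair genes was not tested.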

How the data were processed

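RNA was sequenced from HCT116 cells, with 2 DMSO and 2 HJ-4 libraries of 29769568 to 34359889 counts. The deposited values are raw counts of reads for each Ensembl gene, not normalised, and columns were assigned by the library names in the labels. The paper's methods name STAR, GRCh38 and featureCounts, the submitters' processing notes HISAT2, bedtools and RSEM, and the sources used here do not say which of them made the table. Symbols, coordinates and canonical transcripts came from GENCODE version 44 on GRCh38, and 20148 of 20263 IDs matched. Promoters came from RefSeq (GRCh38.p14, 33 of 35 members).

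Genes kept by filterByExpr in edgeR 4.0.16 (14044) were scaled by TMM in R 4.3.3. The quasi-likelihood test (glmQLFit, glmQLFTest) compared the conditions without covariates, and p-values were adjusted over all genes tested by the Benjamini-Hochberg method. Standard errors come from the F statistics. The method was tested on simulated data with planted changes larger than any of the members' values, so that test does not show its power for them. The paper names limma, and edgeR was used because the values are counts. Alternatives were DESeq2 1.42.0 (size factors, and Wald test), total counts, no filter, a mean of at least 5 CPM, limma 3.58.1 (voom, and log2(TPM + 1)), a replicate block, removal of length and GC trends by loess (span 0.3), and leaving out each library. Overlaps were taken between canonical transcripts. All 35 members are named, in full where the unadjusted p was under 0.05. A few genes of the marker and pathway lists are not reported here by name. The members and lists were chosen with earlier results of these data known. The chi-square per degree of freedom between replicates was 33.1 for DMSO and 20.1 for HJ-4, above sampling noise, so none was merged.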

Additional observations from a re-analysis of the deposited data

How the results depend on the processing

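Of 455 values (35 genes under 13 alternatives), 433 kept their direction and their side of the adjusted threshold, 18 changed sign and 4 passed it, the last all with DESeq2's Wald test, which called 4 members against 0 in edgeR (RAD54L -0.58, FANCG -0.44, FANCA -0.43, MDC1 -0.33). In 23 of the 35 genes no alternative changed the sign. Leaving out each library, the number lower at an unadjusted p under 0.05 was 2 (without HJ-4 replicate 2) to 8 and the number higher 1 to 6 (6 without DMSO replicate 2), against 6 and 2, and the number called was 0 throughout. The number higher was 1 with total counts and 1 with limma on log2(TPM + 1). Medians with a library left out ran from -0.15 to 0.0122 for all members, from 0.0308 to 0.37 for the checkpoint genes, from -0.16 to 0.0531 for recombination, from -0.40 to -0.0883 for the Fanconi genes, from -0.0662 to 0.25 for mismatch repair and from -0.0933 to -0.0019 for the other genes of the pathway. The Fanconi median was -0.25 with total counts, -0.20 with limma on log2(TPM + 1) and -0.25 with length and GC trends removed, and the checkpoint median was then 0.29. Causes were not tested.

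Signs changed with a library left out, where values ran from -0.10 to 0.46 for RAD50, -0.55 to 0.17 for BLM, -0.42 to 0.0338 for BRCA2, -0.16 to 0.28 for PALB2, -0.15 to 0.22 for RAD51C, -0.0656 to 0.0244 for FANCF, -0.0227 to 0.10 for FANCL, -0.41 to 0.0361 for FANCM, -0.52 to 0.0258 for FANCI, -0.18 to 0.32 for MSH6 and -0.63 to 0.50 for UNG. With length and GC trends removed BARD1 was at -0.0168, PALB2 at -0.0023 and RAD51C at -0.0158, and with total counts RAD51C was at -0.0041. With replicate numbers as a block, the unadjusted threshold was passed by 6 lower and 2 higher members and the adjusted one by 0, the same counts as without it but with TP53BP1 in place of CHEK1, and over all genes 31 were called in place of 7. Samples sharing a number did not deviate together over all genes tested (correlation -0.04). That single value cannot settle whether the numbers pair them, since GC content went with the DMSO and HJ-4 gaps in opposite directions. Over all genes edgeR called 7, against 87 and 33 when DMSO replicates 1 and 2 were left out in turn, and 0 when HJ-4 replicates 1 and 2 were. At an unadjusted p under 0.05 these fits gave 2397, 2949, 1040 and 1178 genes, against 2228 with all libraries. A lone sample in such a fit is assumed to vary like the other condition. DESeq2's Wald test called 574, the fit without a filter 12 and that with length and GC trends removed 19. With 2 libraries a condition, the 95% intervals of most members span changes of either sign.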
